A study of Homo sapiens with 33 samples.

Results

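ACKR3, the atypical chemokine receptor also called CXCR7, was described together with 4 genes of the same chemokine axis, CXCL12, CXCR4, CXCL14 and CXCL16, in cells of squamous carcinoma of the head and neck (HNSCC) exposed to the anti-EGFR antibody cetuximab. These 5 genes were taken by symbol from the 56470 gene symbols of the count table, and ACKR3 was chosen by its measured rise with cetuximab in SCC6, so its SCC6 values are a description with no test. RNA of 3 established HNSCC cell lines, SCC1 (UM-SCC-1), SCC6 (UM-SCC-6) and SCC25, was sequenced in bulk in 33 libraries. Each line received PBS (untreated control) or cetuximab at 100 nM, with medium changed daily, and was collected on days 0 to 5 with PBS and on days 1 to 5 with cetuximab. There was 1 library per line, treatment and day, so the 5 days stood in for replicates, and p-values measure the spread between days, which holds both culture time and technical variation. For SCC6 with cetuximab, a pair of libraries is labelled as day 2, named 2a and 2b below, and no library is labelled as day 1. By the labels, SCC25 and SCC1 medium contained hydrocortisone, whereas that of SCC6 contained non-essential amino acids, so that medium and line cannot be told apart.

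CXCL12 is a chemokine, a secreted protein that guides migrating cells, and it binds both CXCR4 and ACKR3. CXCR4 signals through G proteins, whereas ACKR3 mainly recruits arrestins, takes up CXCL12 and delivers it for degradation, which shapes the gradient that CXCR4-bearing cells read. CXCL14 is an epithelial chemokine that has been reported to act on CXCR4 signalling, and CXCL16 is made as a membrane protein, is shed by proteases and binds the receptor CXCR6. In squamous carcinomas, CXCL12 is classically supplied by stromal fibroblasts.

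Levels are given as CPM, the count of a gene relative to the size of its library, after scaling between libraries. They are not corrected for gene length and are therefore compared only within a gene. Libraries held between 28508758 and 80727478 counts, and 3 counts corresponded to 0.0402 to 0.115 CPM. Keratinocyte and epithelial markers were measured in all lines, with 10 of 10 tested in each. Libraries were run on 5 flow cells, and treatment and flow cell were partly confounded: in SCC1, 1 PBS library shared a flow cell with the 5 cetuximab libraries, in SCC6 4 PBS libraries with 3, and in SCC25 5 PBS libraries with 2.

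Promoter sequences were available for 3 of the 5 members, CXCL12, CXCR4 and CXCL14. The 250 bases before the RefSeq transcription start (GRCh38.p14, minus strand in both cases) are shown for CXCL14 (chr5:135578992-135579241) and CXCL12 (chr10:44385098-44385347), the chemokines that were measurable in SCC25 and at 0 to 4 counts in the other lines. Capitals mark matches, on either strand, to the GC box GGGCGG or the AP-1 motif TGAGTCA.
CXCL14: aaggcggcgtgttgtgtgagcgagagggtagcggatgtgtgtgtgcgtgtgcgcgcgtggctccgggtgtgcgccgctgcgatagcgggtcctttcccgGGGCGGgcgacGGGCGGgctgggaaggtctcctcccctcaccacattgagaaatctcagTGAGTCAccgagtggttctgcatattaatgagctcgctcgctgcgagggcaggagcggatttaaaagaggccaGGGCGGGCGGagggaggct
CXCL12: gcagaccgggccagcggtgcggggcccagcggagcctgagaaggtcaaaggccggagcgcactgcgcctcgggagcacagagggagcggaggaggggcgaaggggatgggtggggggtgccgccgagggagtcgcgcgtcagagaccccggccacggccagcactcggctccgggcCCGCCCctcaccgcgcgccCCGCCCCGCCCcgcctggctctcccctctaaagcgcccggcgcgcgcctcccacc
CXCL14 held the AP-1 letters 92 bases before the start, a word found in 4.2% of 35116 such windows, and 4 GC boxes, of which the last pair overlapped. CXCL12 held 3 GC boxes, again with an overlapping last pair, and no AP-1 match, and 42.6% of all windows held at least 1 GC box. TATA box letters (TATAAA, in 10.7% of windows) and the E-box CACGTG (in 6.34%) were also searched and had no match in these windows. The motifs were chosen with the sequences in view, and a match is a description, not a binding site.

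ACKR3 (ENSG00000144476, GRCh37 chromosome 2, 237476430 to 237490997, plus strand) was higher with cetuximab in every line, from 3 very different starting levels. With PBS it was near the detection limit in SCC1, low in SCC6 and abundant in SCC25. Bulk RNA cannot tell more expressing cells from more RNA per cell, here or for the other genes.

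In SCC6, ACKR3 measured 2.40 CPM with PBS on day 0 and 1.64, 1.27, 1.49, 2.55 and 3.18 CPM on days 1 to 5. With cetuximab it measured 38.5 CPM in library 2a, 21.9 in 2b, 63.4 on day 3, 81.7 on day 4 and 89.0 on day 5. The lowest cetuximab library thus lay well above the highest PBS library, as for 11.1% of 17387 genes in this line, where 15.6% were called higher. The later days were the highest with cetuximab and also with PBS. The cetuximab libraries of days 4 and 5 were run on a flow cell that held no PBS library, so time and flow cell cannot be told apart there. The fitted difference was 4.83 on the log2 scale, or 28.4-fold, and the fold over the PBS library of the same labelled day ran from 17.3 (2b) to 42.5 (day 3). Libraries 2a and 2b, which carry the same label, differed between 38.5 and 21.9 CPM. Within the flow cell that held both treatments, the levels were 1.27 to 3.18 CPM in 4 PBS libraries and 21.9 to 63.4 CPM in 3 cetuximab libraries.

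In SCC1, ACKR3 was counted 5 times with PBS on day 0 and 3, 0, 4, 2 and 3 times on days 1 to 5, and 39, 102, 71, 61 and 110 times with cetuximab on days 1 to 5. These counts corresponded to at most 0.103 CPM with PBS and to 0.883, 2.28, 1.78, 1.49 and 2.65 CPM with cetuximab. The groups did not overlap, and 5 of 5 cetuximab libraries lay above the PBS library of their day. Summed over days 1 to 5, 383 counts stood against 12, a CPM ratio of 33.5 with an exact 95% interval of 19.0 to 65.4 that covers counting error only. ACKR3 passed the filter on low counts in SCC1 only through its cetuximab libraries, so the fitted log2 fold change of 5.01 is given as a description, with no test, and depends on PBS libraries of 0 to 4 counts. Across SCC1, 22.7% of the 17984 genes tested were called higher, and 14.9% had cetuximab values all above those with PBS. The cetuximab levels of SCC1 overlapped those of SCC6 with PBS.

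In SCC25, ACKR3 measured 70.7 CPM with PBS on day 0 and 74.5, 76.5, 73.2, 89.4 and 112 CPM on days 1 to 5. With cetuximab it measured 166, 193, 145, 208 and 223 CPM on days 1 to 5. The highest PBS library and the lowest cetuximab library were still separated, and 5 of 5 days gave the same direction. Mean levels were 85.2 ± 16.4 and 187 ± 31.4 CPM (SD, n = 5 each), and the log2 fold change was 1.14 ± 0.14 (SE, adjusted p = 0.00032 by edgeR's quasi-likelihood test). In this line 8.8% of 19101 genes were called higher and 6.19% had non-overlapping groups with cetuximab above. ACKR3 ranked 150 by log2 fold change. The day-by-day fold was narrow, from 1.99 to 2.52.

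**Figure D1:**
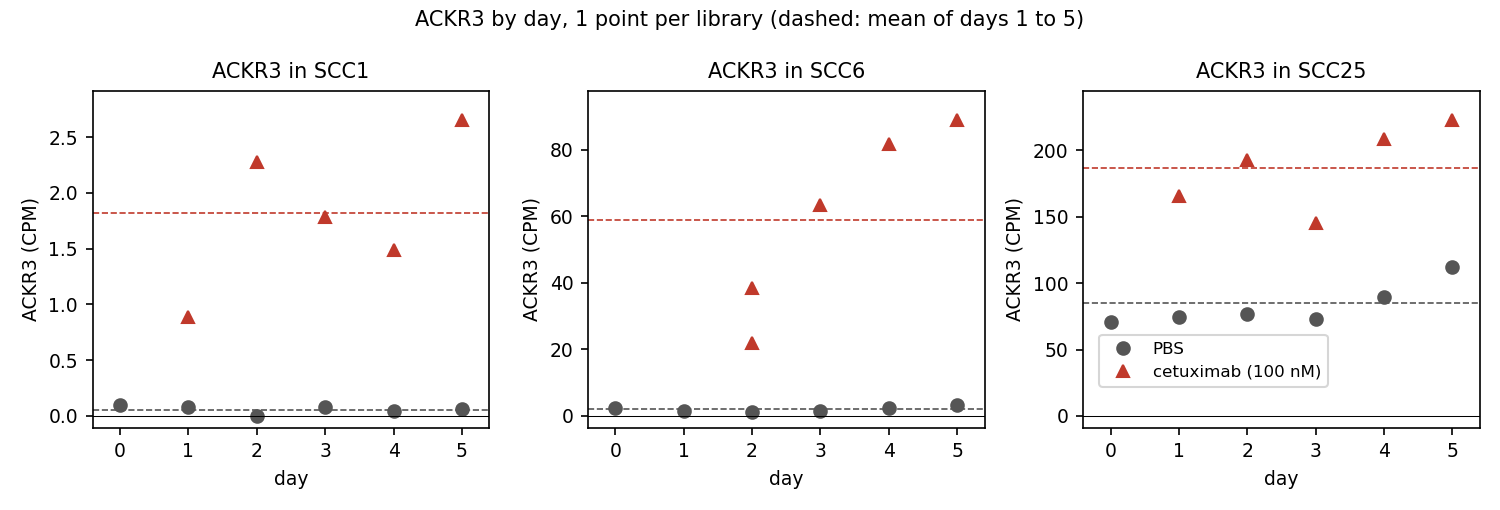
ACKR3 in CPM (y axis, linear, a separate scale in each panel) by day of culture in SCC1, SCC6 and SCC25, with 1 point per library and the mean of days 1 to 5 as a dashed line. Cetuximab points lie above all PBS points in each line, while the scale grows from at most 2.65 CPM in SCC1 to 223 CPM in SCC25.

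The ratio of summed counts, cetuximab over PBS, was 33.5 (exact 95% interval 19.0 to 65.4) in SCC1 and 2.20 (2.17 to 2.24) in SCC25, counting error only. The fitted difference of the changes, SCC1 minus SCC25, was 3.85 on the log2 scale over the 30 libraries of days 1 to 5 and 3.67 with flow cell as a covariate, and it is a description for the reason given for SCC1. With PBS alone, ACKR3 was lower in SCC1 than in SCC25, with a summed-count ratio, SCC25 over SCC1, of 1579 (exact 95% interval 903 to 3056). For SCC6 the same ratio, SCC25 over SCC6, was 41.8 as a description. The order of PBS levels was therefore SCC25, SCC6 and SCC1, with no overlap between neighbouring lines.

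CXCL12 (ENSG00000107562, GRCh37 chromosome 10, 44865613 to 44881941, minus strand), the ligand that ACKR3 removes, was scarce in all lines and measurable only in SCC25. There it measured 0.278 CPM with PBS on day 0 and 0.504, 0.714, 0.430, 0.510 and 0.486 CPM on days 1 to 5. With cetuximab it measured 0.662, 0.519, 0.658, 0.841 and 1.53 CPM, from 31, 25, 26, 39 and 71 counts. Cetuximab values exceeded PBS on 4 of 5 days, day 2 going the other way, and the groups overlapped. The log2 fold change of 0.68 ± 0.29 (SE) did not pass the test (adjusted p = 0.12, edgeR), and it was 0.17 with flow cell as a covariate. Without the cetuximab library of day 5 it was 0.36 (adjusted p = 0.3).

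In SCC1, CXCL12 had 0 counts in the 5 PBS libraries of days 1 to 5, 3 on day 0, and 1, 0, 0, 0 and 4 counts with cetuximab. In SCC6 it had 0 counts in every library except 2 counts with cetuximab on day 5. At the floor of 3 counts over each group, CXCL12 with PBS was at least 39.1-fold higher in SCC25 than in SCC1 and at least 27.0-fold higher than in SCC6. Changes of CXCL12 in SCC1 and SCC6 were not detectable at this depth.

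CXCR4 (ENSG00000121966, GRCh37 chromosome 2, 136871919 to 136876747, minus strand), the signalling receptor of CXCL12, had between 0 and 5 counts in every library and passed the filter in none of the lines. In SCC25 it was counted 3 times with PBS on day 0, 5, 3, 3, 5 and 4 times on days 1 to 5, and 3, 0, 0, 1 and 3 times with cetuximab. On the CPM scale the cetuximab libraries were all below the PBS libraries of days 1 to 5, as for 8.91% of the genes tested in SCC25. The nearest were at 0.0646 and 0.0649 CPM, each from 3 counts. PBS on day 0, at 0.0597 CPM, lay below cetuximab on days 1 and 5 (0.0640 and 0.0646 CPM). The summed counts were 7 against 20, a CPM ratio of 0.358 with an exact 95% interval of 0.128 to 0.880 for counting error. Without the filter the adjusted p was 0.28 in SCC25, 0.68 in SCC6 and 0.13 in SCC1 (edgeR). SCC1 held 6 CXCR4 counts over the 5 PBS libraries and 0 with cetuximab, and SCC6 held 15 and 18.

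CXCL14 (ENSG00000145824, GRCh37 chromosome 5, 134906369 to 134914969, minus strand) was a gene of SCC25 among these lines. It measured 13.1 CPM with PBS on day 0 and 13.7, 13.9, 14.7, 19.7 and 29.7 CPM on days 1 to 5. With cetuximab it measured 26.9, 32.2, 35.2, 56.0 and 60.1 CPM on days 1 to 5. Both series were highest on day 5, and each cetuximab library lay above the PBS library of its day, although PBS on day 5 exceeded cetuximab on day 1. Means were 18.3 ± 6.83 and 42.1 ± 14.9 CPM (SD, n = 5 each), a log2 fold change of 1.21 ± 0.27 (SE, adjusted p = 0.0093, edgeR).

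The fold of CXCL14 over the same day's PBS library was 1.97, 2.32, 2.40, 2.85 and 2.02 on days 1 to 5. The call did not hold with flow cell as a covariate, where the log2 fold change was 0.70 (adjusted p = 0.15). Within the flow cell that held both treatments, PBS ranged from 13.7 to 29.7 CPM and the cetuximab libraries of days 1 and 2 from 26.9 to 32.2 CPM. In SCC1 and SCC6, CXCL14 had 0 to 4 counts per library, and no change could be measured there. With PBS, the summed-count ratio of SCC25 was 511 over SCC1 (exact 95% interval 259 to 1184, from 4279 and 8 counts) and 940 over SCC6 (321 to 4559, from 4279 and 3 counts). CXCL14 passed the filter in SCC25 only, so these ratios are descriptions with counting intervals. On the opposite strand CXCL14 overlaps SLC25A48 and a further gene model, and whether strand was used in counting is not given in the sources used here.

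CXCL16 (ENSG00000161921, GRCh37 chromosome 17, 4636828 to 4643223, minus strand) was expressed in all lines and moved in opposite directions in SCC6 and SCC25. In SCC6 it measured 42.2 CPM with PBS on day 0 and 62.7, 62.5, 61.8, 51.1 and 41.8 CPM on days 1 to 5. With cetuximab it measured 41.1 CPM in both 2a and 2b, and 38.2, 37.2 and 33.4 CPM on days 3 to 5. Cetuximab libraries were lower than PBS throughout with no overlap, a separation that 7.98% of 17387 genes showed in this line, and 14.6% were called lower. The log2 fold change was -0.58 ± 0.13 (SE, n = 5 each, adjusted p = 0.0052, edgeR). It kept its call under all 18 alternative settings, between -0.67 and -0.45.

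In SCC25, CXCL16 measured 11.0 CPM with PBS on day 0 and 14.4, 16.3, 16.3, 20.3 and 21.6 CPM on days 1 to 5, against 23.0, 28.2, 21.0, 28.8 and 27.3 CPM with cetuximab. The groups overlapped only through PBS on day 5 and cetuximab on day 3, and 5 of 5 days were higher with cetuximab. The log2 fold change was 0.54 ± 0.12 (SE, adjusted p = 0.012, edgeR). It had the same size, 0.54, with flow cell as a covariate, but an adjusted p of 0.065.

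In SCC1, CXCL16 measured 21.5 CPM with PBS on day 0 and 29.1, 33.0, 32.9, 37.8 and 38.0 CPM on days 1 to 5, against 28.7, 39.9, 42.0, 43.9 and 48.6 CPM with cetuximab. The groups overlapped, and 4 of 5 days were higher with cetuximab. The log2 fold change of 0.27 ± 0.12 (SE) did not pass the test (adjusted p = 0.091, edgeR). Libraries of the same day deviated together in SCC1 and SCC25, and with day as a block the value in SCC1 was 0.25 with an adjusted p = 0.014. Without the cetuximab library of day 1 it was 0.37 (adjusted p = 0.004), whereas it was 0.11 (adjusted p = 0.75) with flow cell as a covariate.

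**Figure D2:**
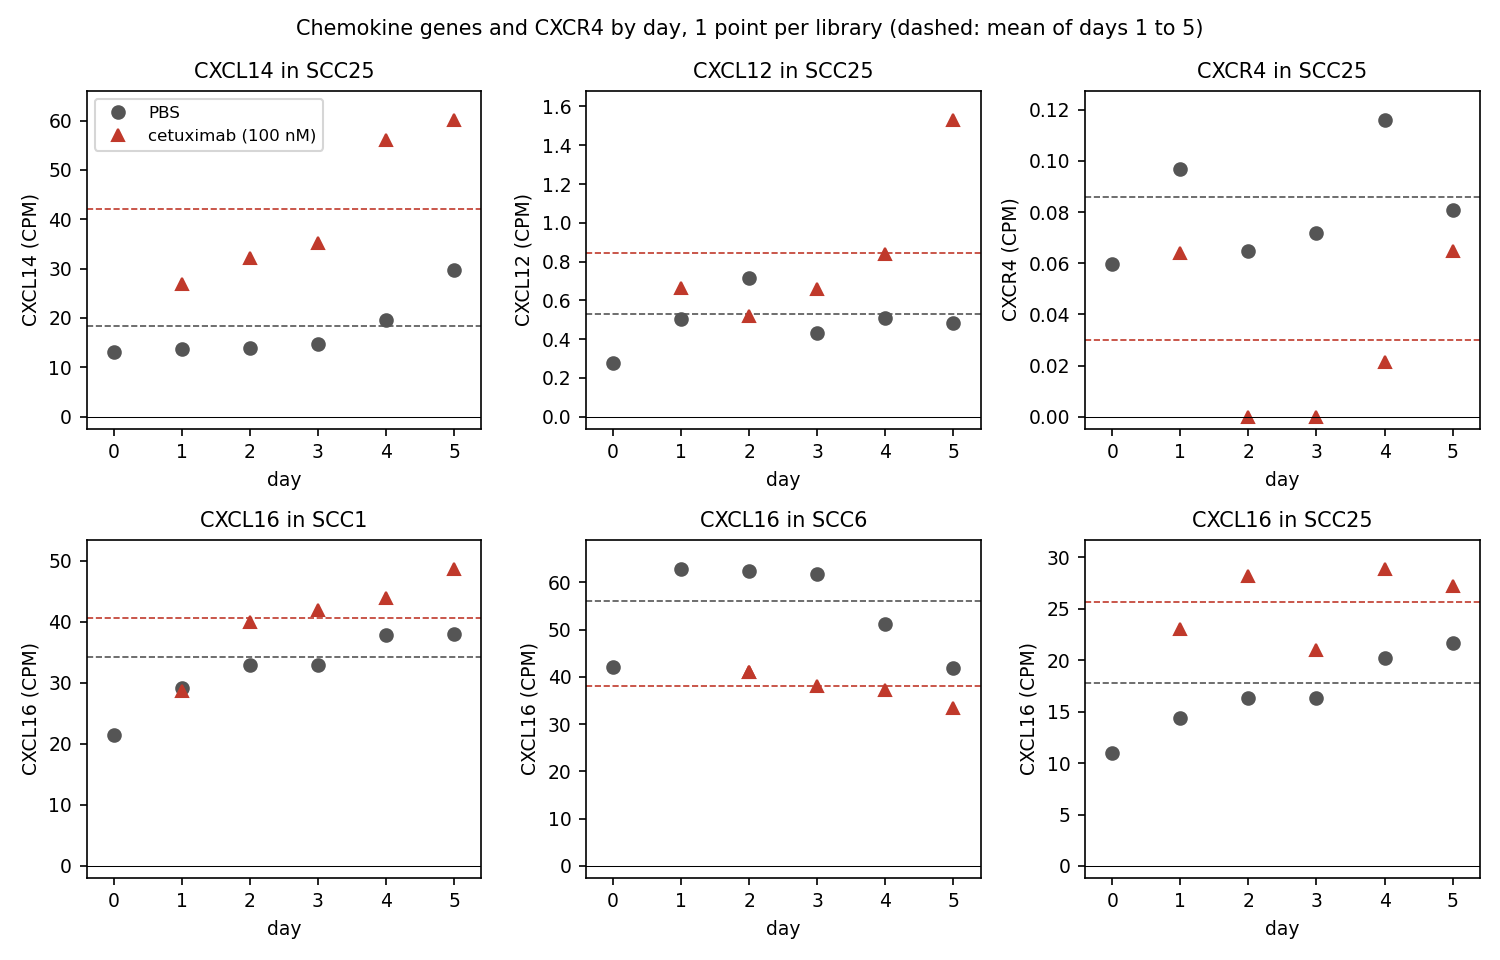
CPM (y axis, linear, a separate scale in each panel) by day of CXCL14, CXCL12 and CXCR4 in SCC25 and of CXCL16 in each line, with 1 point per library and dashed means of days 1 to 5; the 41.1 CPM points of libraries 2a and 2b coincide in the SCC6 panel. Cetuximab points lie above PBS on every day for CXCL14 and CXCL16 in SCC25 and below PBS on every day for CXCL16 in SCC6, and the CXCR4 panel rests on 0 to 5 counts per library.

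The difference between lines in the CXCL16 change was tested directly. It was -1.11 ± 0.19 (log2, SE) for SCC6 minus SCC25 (adjusted p = 9.5e-05, with 17.5% of genes called) and -0.82 ± 0.18 for SCC6 minus SCC1 (adjusted p = 0.0017, with 19.3% called), both by edgeR. The second was -0.54 (adjusted p = 0.24) with flow cell as a covariate. SCC1 minus SCC25 was -0.29 (adjusted p = 0.43, with 8.52% called). With PBS, CXCL16 was highest in SCC6, then SCC1, then SCC25, and each step passed the test (log2 differences 0.73, adjusted p = 1.4e-05, and 0.95, adjusted p = 2.6e-07, in comparisons that called 66.6% and 66.5% of genes). SCC6 minus SCC25 was 1.68 (adjusted p = 3.2e-12, with 69.9% called). With PBS on day 5, CXCL16 was near its day 0 level in SCC6 and above it in SCC1 and SCC25. On the opposite strand CXCL16 overlaps MED11 and ZMYND15.

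Whether the changes grew over the course was tested by setting days 4 and 5 against days 1 to 3. No tested member passed in any line. The largest difference was that of CXCL12 in SCC25, 1.08 ± 0.46 (log2, SE; unadjusted p = 0.039, adjusted p = 1), and the lowest adjusted p was 0.28, for CXCL16 in SCC6 (edgeR), or 0.29 by DESeq2. In these comparisons edgeR called 0% of all genes, with 7.42%, 29.4% and 2.89% at an unadjusted p under 0.05 in SCC1, SCC6 and SCC25. For ACKR3 the difference was 0.31 ± 1.25 in SCC1, a description for the reason given above, and -0.09 ± 0.17 in SCC25. In SCC6 it was 0.13, also a description.

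Among other proteins bound by ACKR3, adrenomedullin (ADM), a vasoactive peptide, was higher with cetuximab in all lines. In SCC1 it measured 14.1, 14.2, 12.8, 13.9 and 14.3 CPM with PBS on days 1 to 5 and 22.1, 27.7, 21.5, 21.8 and 24.7 CPM with cetuximab, a log2 fold change of 0.78 ± 0.08 (SE, adjusted p = 1.2e-05, edgeR). In SCC6 it measured 21.8, 22.4, 27.7, 32.2 and 30.3 CPM with PBS and 69.6 (2a), 47.4 (2b), 80.2, 89.9 and 80.8 CPM with cetuximab, a log2 fold change of 1.42 ± 0.17 (adjusted p = 0.00013). In SCC25 it measured 55.2, 66.7, 67.6, 67.9 and 86.1 CPM with PBS and 97.3, 108, 74.3, 91.8 and 101 CPM with cetuximab, a log2 fold change of 0.47 ± 0.12 (adjusted p = 0.018). Groups overlapped in SCC25 only, and the 3 calls held under all 18 alternative settings each.

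ADM was also the gene whose levels tracked ACKR3 most closely. Over the 30 libraries of days 1 to 5, Pearson's r of log2(CPM + 0.5) was 0.986 for ADM among 14620 genes, followed by PDLIM1 (0.984), SHC3 (0.979), MATN2 (0.979) and STON1 (0.977). The libraries share 3 lines with very different ACKR3 levels, and the points form separate groups by line and treatment, so these are descriptions of likeness and no test was made. CXCL14 was closest to HSPB3, NEFL and ANGPT1 (each 0.996) and CXCL12 to CASP14 (0.973), KRT75 and HSPB3 (each 0.970), patterns that rest on the contrast of SCC25 with the other lines. Among the genes closest to CXCL16 were CFLAR (0.946) and MUC20 (0.924). For CXCR4, whose counts were at the floor, the closest were DDX31 (0.832), QRSL1 (0.828) and MAIP1 (0.814).

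**Figure D3:**
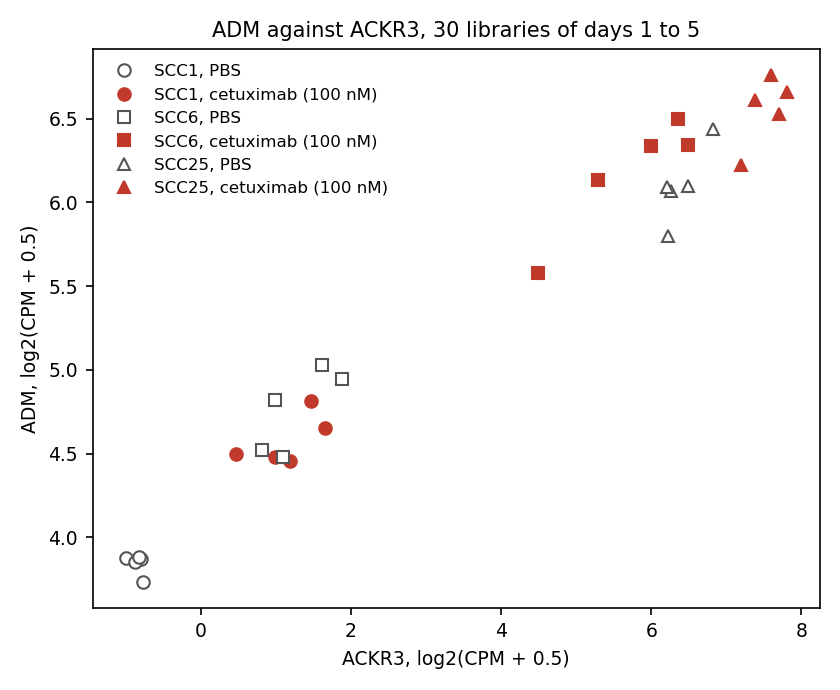
Level of ADM against ACKR3, both as log2(CPM + 0.5), in the 30 libraries of days 1 to 5, by line (symbol) and treatment (open grey for PBS, filled red for cetuximab). In SCC1 and SCC6 the cetuximab libraries lie to the right of and above the PBS libraries of their line, and in SCC25 they lie to the right with overlapping ADM levels.

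CXCL11, the other chemokine ligand of ACKR3, is given although it was not among the genes named by rule. It measured 16.7 ± 4.77 CPM with PBS and 27.9 ± 11.4 CPM with cetuximab in SCC25 (SD, n = 5 each, log2 fold change 0.75, adjusted p = 0.076) and 6.91 ± 5.93 and 9.35 ± 3.55 CPM in SCC1 (0.45, adjusted p = 0.48, both edgeR). In SCC6 it averaged 0.104 CPM and could not be tested. Among the remaining ligands, HMGB1, which acts with CXCL12 on CXCR4, was lower in SCC1 (log2 fold change -0.43, adjusted p = 0.0014), and had nearly the same fold with flow cell as a covariate (-0.42, adjusted p = 0.062). MIF, also outside the rule, was called in no line. Its log2 fold changes were -0.53, -0.10 and -0.18 in SCC1, SCC6 and SCC25 (adjusted p = 0.052, 0.72 and 0.7, edgeR). Among partner receptors, CALCRL, the receptor core for adrenomedullin, was higher in SCC1 (0.79, adjusted p = 0.00049, or 0.70 with adjusted p = 0.063 with flow cell as a covariate) and GPER1, an oestrogen-binding receptor, in SCC6 (2.61, adjusted p = 0.00025). Given outside the rule, RAMP2 and CXCR6 of the same list went the other way at low levels. The coreceptor RAMP2 fell in SCC1 from 1.54 to 0.222 CPM, a description. CXCR6 was lower in SCC1 (-1.23, adjusted p = 0.00032) and SCC6 (-1.65, adjusted p = 0.0024, both edgeR).

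Of 91 further genes of the chemokine system in 8 lists, 45 could be tested in SCC1, 36 in SCC6 and 47 in SCC25. In SCC1 10 were called higher and 15 lower, in SCC6 8 and 10, and in SCC25 7 and 3. That was 55.6%, 50% and 21.3% of those tested, against 44.8%, 30.1% and 18.3% of all genes (in SCC25 8.8% higher and 9.5% lower). The median log2 fold change was -0.10, -0.12 and 0.00 over the lists and 0.02, 0.00 and 0.01 over all genes tested. The counts hold genes near the floor in 1 treatment, among them RAMP2 in SCC1 and PPBP and CCL20 in SCC6, whose values are descriptions.

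ELR chemokines, which attract neutrophils through CXCR1 and CXCR2, fell in SCC1 and SCC6. Of 7 listed, 4 could be tested in each line. In SCC1 4 of 4 were lower, where 22.1% of all genes were, among them CXCL1 (log2 fold change -3.34 ± 0.39 SE, 102 ± 57.8 to 9.90 ± 2.16 CPM), CXCL8 (-2.73 ± 0.37) and CXCL2 (-2.34 ± 0.31). In SCC6 CXCL2 (-1.45 ± 0.41), CXCL8 (-1.26 ± 0.40) and, outside the rule, CXCL3 (-1.12 ± 0.25) were lower, where 14.6% of all genes were. The CXCL8 adjusted p of 0.031 (edgeR) reached 0.064 when single libraries were left out. PPBP, also among the 4, went from 3.10 ± 1.77 to 0.107 ± 0.0913 CPM (SD, n = 5 each), near the floor with cetuximab. Its fitted value of -4.98 is therefore a description. In SCC25 the 4 tested had adjusted p between 0.064 and 0.87 (edgeR) and a median log2 fold change of -0.26. Whether the fall of these genes differed between lines was not tested.

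CCL20, which attracts CCR6-bearing lymphocytes and dendritic cells, was lower in each line. Log2 fold changes were -2.44 (adjusted p = 0.00028, edgeR) in SCC1, -3.76 in SCC6 and -1.13 (adjusted p = 0.0033) in SCC25. The SCC6 value is a description, as CCL20 went there from 2.26 ± 1.04 to 0.169 ± 0.135 CPM (SD, n = 5 each), near the floor. CCL5 was higher in SCC1 (1.00, adjusted p = 0.021) and SCC6 (1.52, adjusted p = 0.023), with values of 0.28 (adjusted p = 0.72) and 1.32 (adjusted p = 0.063) with flow cell as a covariate. CCL22 was lower in SCC6 (-1.91, adjusted p = 0.0083). CCL28, a mucosal epithelial chemokine, was slightly higher in SCC1 (0.27, adjusted p = 0.021), SCC6 (0.39, adjusted p = 0.035) and SCC25 (0.34, adjusted p = 0.021). The call was removed by 5 of 18 alternatives in SCC1 and 3 of 18 in SCC25. XCL1 was higher in SCC1 (0.78, adjusted p = 0.0053) and in SCC25 (0.72, adjusted p = 0.016), the latter 0.53 with flow cell as a covariate (adjusted p = 0.17). CCL28 in SCC6 and XCL1 in SCC1 are given outside the rule, and no alternative was run for them.

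Of 19 further chemokine receptors, 5, 3 and 3 were tested in SCC1, SCC6 and SCC25. Called higher and lower were 3 and 2 in SCC1, 1 and 1 in SCC6 and 0 in SCC25. That was 100%, 66.7% and 0%, against 44.8%, 30.1% and 18.3% of all genes. Only ACKR2 in SCC6 had a mean of at least 1 CPM. ACKR2, the scavenger of inflammatory CC chemokines, was higher there (1.30 ± 0.37 to 3.41 ± 1.05 CPM, log2 fold change 1.36, adjusted p = 0.0023, edgeR). Outside the rule, ACKR2 was also higher in SCC1 (0.65, adjusted p = 0.047). CCRL2 went from 0.471 to 0.152 CPM in SCC6 and from 0.768 to 0.170 CPM in SCC1, a description. Of 10 genes of receptor phosphorylation, arrestin binding and sorting, all tested in each line, 4 were lower and 0 higher in SCC1, 2 lower and 1 higher in SCC6, and 1 lower and 0 higher in SCC25. That was 40%, 30% and 10% called, near or below the 44.8%, 30.1% and 18.3% of all genes. In SCC1 they included the arrestins ARRB1 (-0.76, or -0.60 with adjusted p = 0.21 with flow cell as a covariate) and ARRB2 (-0.55, or -0.62 with adjusted p = 0.031) and the ubiquitin ligase ITCH (-0.55, adjusted p = 3.6e-05). In SCC6, ARRB2 was lower by the same test (-0.44, adjusted p = 0.036), a call that 10 of 18 alternatives removed. The receptor kinase GRK5 was higher in SCC6 (0.82, adjusted p = 0.0089) and lower in SCC25 (-0.60, adjusted p = 0.001).

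All 10 listed proteases and inhibitors that act on chemokines were tested in each line. For SCC1, 2 were called higher and 1 lower, or 30% of the list against 44.8% of all genes. The SCC6 calls were 2 higher and 0 lower, or 20% against 30.1%. SCC25 had 3 higher and 1 lower, or 40% against 18.3%. The called share was thus above that of all genes only in SCC25. MMP9, a gelatinase that cleaves CXCL12, was lower in SCC1 (log2 fold change -3.22, adjusted p = 1.4e-06, edgeR). It went there from 130 ± 46.2 to 13.7 ± 2.95 CPM, and was also lower in SCC25 (-1.56, adjusted p = 0.0068). MMP2 and MMP14 were higher in SCC6 (2.48, adjusted p = 7.7e-05, and 2.16, adjusted p = 0.0026), and MMP14 was slightly higher in SCC25 (0.29, adjusted p = 0.027). TIMP3, a protease inhibitor, was higher in SCC1 (2.21, adjusted p = 3.7e-05). ADAM10, which sheds CXCL16, was slightly higher in SCC1 (0.22, adjusted p = 0.0023, or 0.16 with adjusted p = 0.17 with flow cell as a covariate). In SCC25, DPP4, which inactivates CXCL12, and CTSB were higher (0.62, adjusted p = 0.028, and 0.40, adjusted p = 0.012), with 0.44 (adjusted p = 0.24) and 0.27 (adjusted p = 0.16) with flow cell as a covariate.

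**Figure D4:**
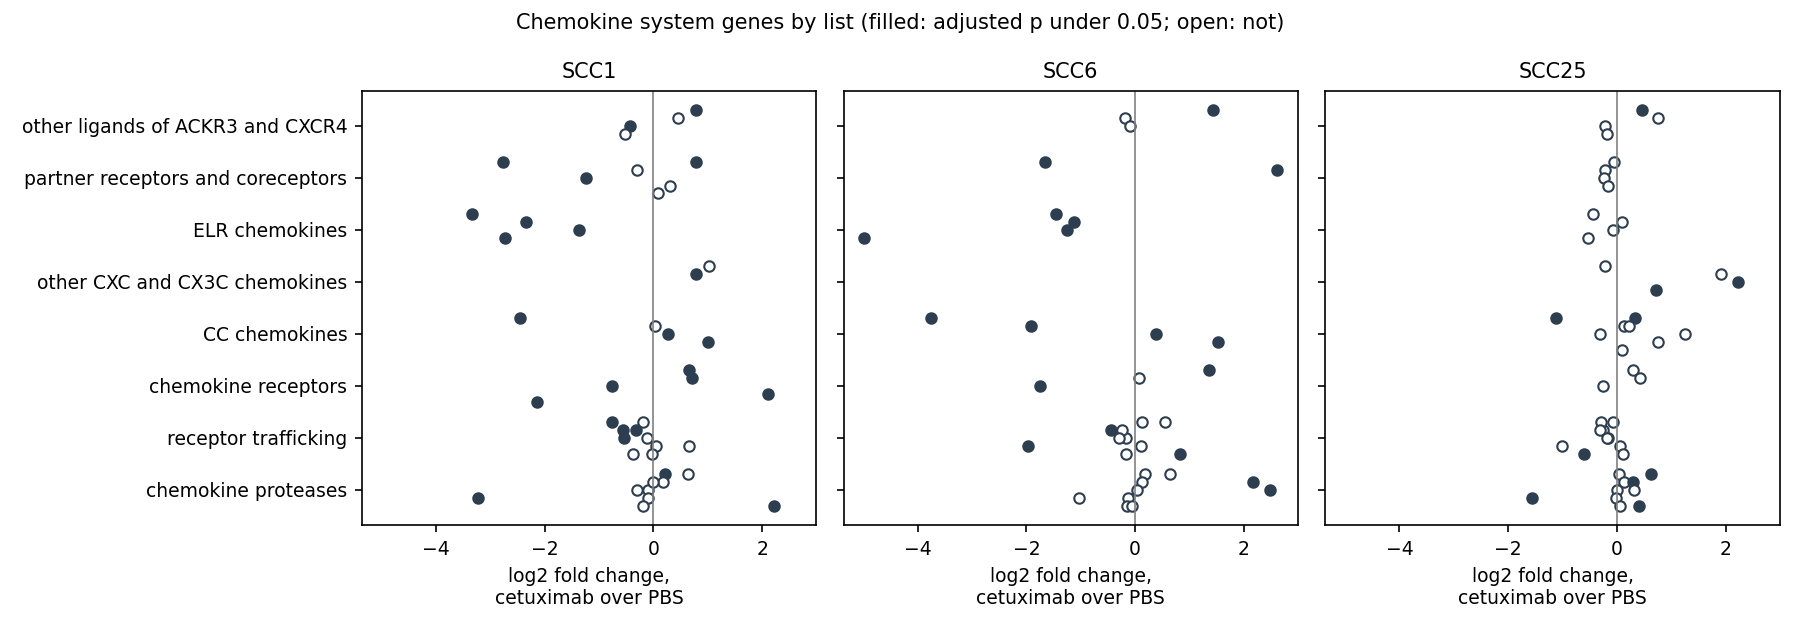
Log2 fold change of cetuximab over PBS (x axis) of the tested genes in 8 chemokine system lists (y axis, points offset vertically for legibility) in SCC1, SCC6 and SCC25, with 1 point per gene, filled where the adjusted p was under 0.05. ELR chemokines lie left of 0 and are filled in SCC1 and SCC6, and are open in SCC25.

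Epithelial markers, all 10 tested in each line, also moved. In SCC1 6 were higher and 4 lower, with a summed level of 4285 to 4905 CPM with PBS and 7114 to 9532 CPM with cetuximab. In SCC6 2 were higher and 4 lower (7051 to 13335 and 5623 to 6663 CPM), and in SCC25 1 was higher and 1 lower. Of all genes, 22.7%, 15.6% and 8.8% were called higher in SCC1, SCC6 and SCC25 and 22.1%, 14.6% and 9.5% lower, against which the marker counts are to be read.

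Markers of fibroblasts, cells that commonly express ACKR3 and CXCL12, were in part higher with cetuximab. Their summed level in SCC1 was 52.6 to 73.9 CPM with PBS and 97.3 to 227 CPM with cetuximab, with 6 of 6 tested markers higher. In SCC6 it was 3.43 to 5.28 and 9.96 to 115 CPM, with 2 of 3 tested higher (COL1A1 and PDGFRB), and in SCC25 186 to 235 and 299 to 469 CPM, with 5 of 10 tested higher and THY1 lower. No fibroblast marker was at 0 in all libraries of a line. Means with PBS were low or near the floor for DCN and LUM in SCC1 (0.129 and 0.221 CPM) and PDGFRB in SCC6 (0.0754 CPM). The part of these genes in the counts is a description. With PBS the summed markers were highest in SCC25, then SCC1, then SCC6. Mean ACKR3 with PBS was 85.2, 0.0541 and 2.03 CPM in these lines. The part of the fibroblast markers in the ACKR3 result was not tested.

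Summed leukocyte markers ranged from 36.6 to 76.3 CPM with PBS and 17.0 to 28.1 CPM with cetuximab in SCC1, 17.6 to 20.1 and 6.51 to 9.54 CPM in SCC6, and, with overlap, 180 to 248 and 153 to 188 CPM in SCC25. Of 12 markers 5, 3 and 4 were tested. CD68 was lower in each line (log2 fold changes -2.15, -1.89 and -0.31) and CORO1A in SCC1 (-2.49) and SCC25 (-0.63), whereas CSF1R was higher in SCC1 (2.07) and SCC6 (2.23). PTPRC, which marks leukocytes in general, had a mean of at most 0.214 CPM in any group, CD2 was at 0 in every library, CD3D in SCC6 and CD3E in SCC25. Of 8 endothelial markers, 5, 2 and 4 were tested, and 2 were lower in SCC1. Their part in the results of the chemokine genes was not tested.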

How the data were processed

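Bulk RNA-seq values were used as the authors deposited them: estimated counts per gene symbol, inferred with Salmon (0.8.2 in the submitters' processing notes, which name hg19/GRCh37) and exported with tximport, not normalised between libraries. The annotation is not given in the sources used here. Counts were rounded to whole numbers (63.2% already were whole, with a tolerance of 0) and analysed in R 4.3.3. The members, gene lists and tests were chosen with earlier results of these data known.

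Per line, 5 cetuximab and 5 PBS libraries of days 1 to 5 were compared with edgeR 4.0.16 (filterByExpr, TMM, quasi-likelihood F test, Benjamini-Hochberg over all genes tested, two-sided, adjusted p under 0.05). Calls and SE are from this fit, with SE as the absolute log2 fold change divided by the square root of F. Differences between lines were tested in 1 fit of 30 libraries, and periods in a fit of 4 groups per line. CPM used TMM factors, and 0.5 was added before log2 for correlations. Named genes were the 5 members, up to 3 genes per list and line by largest change among called genes with a mean of at least 1 CPM, and the 5 (ACKR3) or 3 genes of highest Pearson r. A gene that this rule names is not reported here. Ratios of summed counts carry exact 95% intervals, and intervals and floors cover counting error only. The procedure was tested on simulated data.

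Alternatives were DESeq2 1.42.0, its size factors, no filter, each library left out, day as a block, flow cell (from the labels) as a covariate and day 0 added. Total counts and libraries of 1 flow cell were added after seeing the data. Same-day deviations correlated between treatments at 0.11 to 0.37 in SCC1 and 0.21 to 0.56 in SCC25, so day was taken to pair these libraries. In SCC6 they were mixed, at 0.54 to 0.60 for labelled days 2 and 3, but -0.20 on day 4 and 0.01 on day 5. On days 4 and 5 the SCC6 cetuximab and PBS libraries were on different flow cells. Positions are from GENCODE on GRCh37, not the authors' annotation, and promoters from RefSeq on GRCh38.p14.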

Additional observations from a re-analysis of the deposited data

Results flagged for a closer look

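CXCL12 in SCC25 with PBS stood out on day 2, at 0.714 CPM (33 counts) against 0.430 to 0.510 CPM on the other days. Its distance to the nearest library was 0.717 of the whole range of the group. Chance gives such a lone library in about 1 in 20 groups, and 15 groups were examined.

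The fitted ACKR3 change in SCC1 minus that in SCC25 was 3.85 on the log2 scale. It rests on SCC1 PBS libraries of 0 to 4 counts, in a gene that passed the filter there only through cetuximab. With flow cell as a covariate it was 3.67, and both values are descriptions with no test.

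The CXCL16 change differed between SCC6 and SCC25 by -1.11 and between SCC6 and SCC1 by -0.82, with the CXCL16 level lower with cetuximab in SCC6.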

How the results depend on the processing

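Over 33 results on the members and list counts, 433 of 449 values under alternative settings kept direction and, where a p-value existed, side of the threshold. This total is not a count of valid tests. It also holds list counts and results given as descriptions, among them ACKR3 in SCC1 and SCC6 and the PBS levels of CXCL12 and CXCL14. The ACKR3 log2 fold change ranged from 4.70 to 5.22 in SCC1, 4.24 to 5.03 in SCC6 and 1.08 to 1.28 in SCC25. The ACKR3 difference of SCC1 minus SCC25, a description, was 3.67 with flow cell as a covariate. With this covariate, edgeR calls were lost for CXCL14 in SCC25 (0.70, adjusted p = 0.15) and CXCL16 in SCC25 (0.54, adjusted p = 0.065). The call of the CXCL16 difference of SCC6 minus SCC1 was also lost (-0.54, adjusted p = 0.24), as was that of CXCL14 among libraries of 1 flow cell (0.70, adjusted p = 0.12). The cause was not tested, and fewer libraries or degrees of freedom entered these fits. With day as a replicate block, in the paired analysis, CXCL16 in SCC1 passed (0.25, adjusted p = 0.014), as it did with total counts (0.32, adjusted p = 0.036), and the block changed no other call of a member. Leaving out single libraries gave 0.19 to 0.37 for CXCL16 in SCC1.

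Between days 4 and 5 and days 1 to 3, 7 differences were fitted under alternative settings, that of ACKR3 in SCC1 as a description, and none tested passed. Of the 7, 4 turned sign when single libraries were left out: -0.24 to 0.86 for ACKR3 and -0.068 to 0.19 for CXCL16 in SCC1, and -0.25 to 0.11 for ACKR3 and -0.22 to 0.41 for CXCL14 in SCC25. Of the 36 named calls among list genes, 14 were lost under at least 1 alternative. CXCL12 and CXCL14 in SCC1 and SCC6, and CXCR4 throughout, were limited by depth.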
